A study of Mus musculus with 23 samples.

Results

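The methylation of extraembryonic ectoderm (ExE) at embryonic day 6.5 (E6.5) was compared between the reciprocal crosses of 2 mouse strains, in 4 of the 23 bisulfite libraries of the series. B6/CAST embryos had a C57BL6/Babr mother and a CAST/Ei father, CAST/B6 embryos had the parents the other way round, and each cross gave 2 ExE libraries. No allele was modified and no agent was given in these 4 libraries, so that apart from the sex chromosomes and mitochondria both crosses carry 1 copy of each parental genome and differ in which parent gave which copy. Each library was a pool of hand-dissected ExE from natural matings, made by post-bisulfite adaptor tagging from chromatin cut with micrococcal nuclease. The sex of the pooled embryos was not given, and whether 2 pools of a cross shared litters was not stated, so that p-values measure the spread between pools. The features are windows that each hold 100 CpG positions of the authors' data, with a percent methylation per library. Of 333984 windows, 320494 lay on chromosomes 1 to 19, and the 282147 of these with a value in all 4 libraries (88.0%) were kept. Their median length was 5968 bp, against 7219 bp in the windows left out.

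Methylation of cytosine in CpG dinucleotides is erased on most of the genome after fertilisation and laid down again around implantation by the de novo methyltransferases. The ExE, which forms the chorion and later part of the placenta, is known to be methylated less than the epiblast, with long regions of intermediate methylation between CpG-poor genes, while some CpG island promoters are methylated more in ExE than in epiblast. CpG islands are short stretches dense in CpG that cover many promoters and mostly stay unmethylated. Because a window holds a set number of CpG positions, its length is an inverse measure of CpG density. A short window is CpG dense and a long window CpG poor.

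CAST/B6 ExE was more methylated than B6/CAST ExE by 12.1 percentage points on average over the windows. The mean was 51.5% and 51.6% in the B6/CAST libraries and 64.9% and 62.4% in the CAST/B6 libraries, that is 51.6% ± 0.0401 (SD, n = 2) against 63.6% ± 1.70 (SD, n = 2). The crosses did not overlap, and the gap was larger than the distance between the pools of either cross. A two-sided exact permutation test of the 4 library means gave p = 0.33, which is the smallest that 2 against 2 libraries can give. Per window, the difference was large in long, CpG-poor windows of intermediate methylation far from gene starts and small in CpG-dense windows at promoters.

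The following stretches show what these ends of the range look like in sequence. Each is the run of 300 bases with the most CpG, and no annotated UTR, inside 1 window, read from the plus strand of the RefSeq mouse genome GRCm38.p6, with CpG dinucleotides in capitals. Hapln1 (chr13:89540973-89541272) and Cps1 (chr1:67165366-67165665) come from the gene body window with the largest difference, picked for that, in a gene that was more methylated in CAST/B6. Eomes (chr9:118477629-118477928) comes from a CpG island window at a promoter, Rps6ka4 (chr19:6830166-6830465) from the window with the lowest difference in a gene that was less methylated in CAST/B6, and H19 (chr7:142576786-142577085) from an imprinted locus described further on.
Hapln1: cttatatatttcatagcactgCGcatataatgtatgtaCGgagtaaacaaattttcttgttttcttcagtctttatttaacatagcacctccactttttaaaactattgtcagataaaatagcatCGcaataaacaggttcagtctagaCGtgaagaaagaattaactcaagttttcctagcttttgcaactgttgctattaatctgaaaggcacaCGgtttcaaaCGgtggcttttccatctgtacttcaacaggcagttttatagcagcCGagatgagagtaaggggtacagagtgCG
Cps1: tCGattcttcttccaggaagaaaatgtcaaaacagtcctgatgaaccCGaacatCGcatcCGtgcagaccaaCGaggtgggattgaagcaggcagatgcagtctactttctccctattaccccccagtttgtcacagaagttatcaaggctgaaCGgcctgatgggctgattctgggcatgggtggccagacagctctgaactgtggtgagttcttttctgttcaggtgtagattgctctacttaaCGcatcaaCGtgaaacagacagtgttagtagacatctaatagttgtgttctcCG
Eomes: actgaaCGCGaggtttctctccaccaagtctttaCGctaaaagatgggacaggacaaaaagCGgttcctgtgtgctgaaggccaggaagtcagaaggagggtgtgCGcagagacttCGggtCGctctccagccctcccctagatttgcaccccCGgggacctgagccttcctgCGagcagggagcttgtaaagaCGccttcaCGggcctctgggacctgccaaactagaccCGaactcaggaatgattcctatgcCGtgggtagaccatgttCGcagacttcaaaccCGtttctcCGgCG
Rps6ka4: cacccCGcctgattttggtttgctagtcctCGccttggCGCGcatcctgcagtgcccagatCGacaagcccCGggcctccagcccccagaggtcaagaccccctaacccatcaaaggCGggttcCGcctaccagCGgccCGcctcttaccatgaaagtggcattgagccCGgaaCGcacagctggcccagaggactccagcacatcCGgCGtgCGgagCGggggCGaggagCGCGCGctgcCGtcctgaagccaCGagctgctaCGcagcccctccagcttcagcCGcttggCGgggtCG
H19: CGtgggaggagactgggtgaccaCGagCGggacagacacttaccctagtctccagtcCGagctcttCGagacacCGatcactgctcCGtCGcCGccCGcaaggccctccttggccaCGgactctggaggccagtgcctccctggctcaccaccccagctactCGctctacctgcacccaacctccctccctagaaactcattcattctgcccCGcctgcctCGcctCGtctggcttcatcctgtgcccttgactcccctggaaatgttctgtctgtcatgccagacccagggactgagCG
The stretches hold 8, 9, 17, 26 and 16 CpG dinucleotides in that order. The whole Hapln1 window is 9819 bp long and was methylated at 24.0% and 16.7% in B6/CAST against 65% and 56.5% in CAST/B6. The Cps1 window, 10325 bp long, had 24.0% and 16.1% against 69.2% and 52.6%. The Eomes window, 1368 bp long, had 3.26% and 0.98% in B6/CAST and 0% in both CAST/B6 libraries. The differences were 40.4, 40.9 and -2.12 points in that order. The Rps6ka4 window, 747 bp long and CpG dense as well, had 49.6% and 36.1% against 30.8% and 13.2%, a difference of -20.9 points. Since all but the Eomes window were chosen for their values, they show sequences and no rule.

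The mean difference grew with window length. In the 10339 windows under 1 kb, methylation was 4.496% and 4.39% in B6/CAST and 4.85% and 4.47% in CAST/B6, a difference of 0.21 points, and the libraries of the crosses overlapped. In the 27517 windows of 14 kb or more, it was 36.6% and 36.5% against 57.3% and 53.9%, a difference of 19.03 points, or 1.52-fold. Between these ends it grew with every step of length, from 3.19 points at 1 to 2 kb through 8.11 at 2 to 4 kb, 10.6 at 4 to 6 kb, 12.9 at 6 to 8 kb and 15.0 at 8 to 10 kb to 17.3 at 10 to 14 kb. Because windows of intermediate length are many, those of 4 to 6 kb held 23.4% of the summed difference and those of 14 kb or more 15.4%. The mean GC content of the classes fell from 67.7% in the shortest to 37.9% in the longest.

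The share of windows in which both CAST/B6 libraries lay above both B6/CAST libraries followed the same order. It was 54.3% over all windows (153255 of 282147), and both CAST/B6 libraries lay below in 3.8% (10729 windows). Among windows under 1 kb, 9.498% lay above and 20.3% below. Among windows of 14 kb or more, 70.9% lay above and 0.763% below. Taken as a share of what was left unmethylated in B6/CAST, the difference was near 30% in all classes from 6 kb up (30.3%, 32.0%, 32.1% and 29.99%), and it was 26.7% at 4 to 6 kb, 19.2% at 2 to 4 kb and 0.225% under 1 kb.

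**Figure D1:**
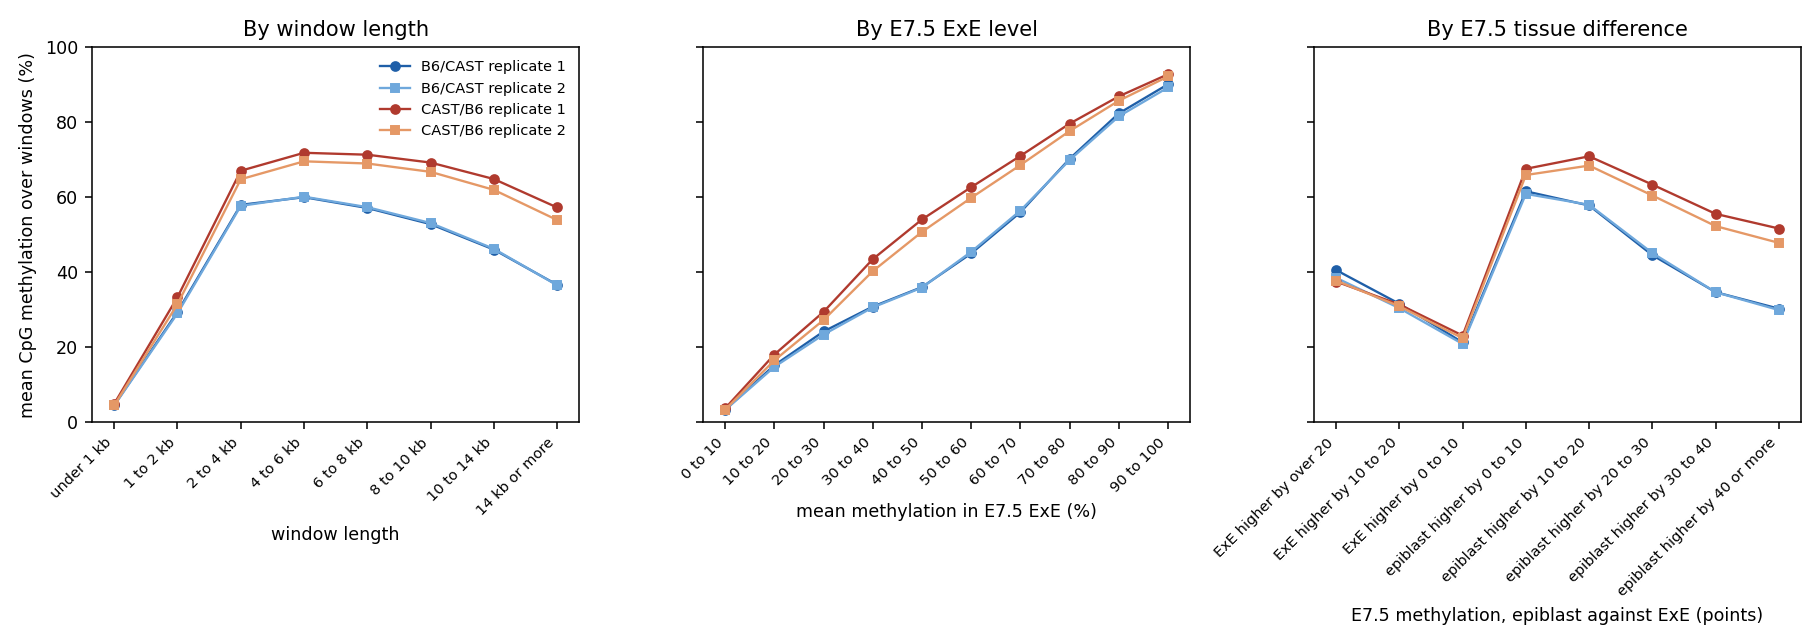
Mean methylation (percent) of the 4 E6.5 ExE libraries, 1 line per library, over classes of window length, of E7.5 ExE methylation, and of the E7.5 difference between epiblast and ExE. The lines of the crosses lie together in windows under 1 kb (4.39% to 4.85%) and apart by 19.03 points in windows of 14 kb or more.

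No single window passed the test. With limma and Benjamini-Hochberg adjustment over all windows, 0 of 282147 (0%) had an adjusted p under 0.05, and the smallest was 0.141. At an unadjusted p under 0.05 there were 70793 windows, 70033 higher and 760 lower in CAST/B6. Limma called 0 windows on the logit scale, with trend and robust, with the replicate block and without any of the 4 libraries, and 3905 (3900 higher, 5 lower) when the spread was estimated from all 10 wild-type E6.5 libraries. The spread of the difference over windows was 11.6 points (SD), and the part given by the distance between replicate libraries alone was 9.57 points. The values of single windows are therefore descriptions.

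To class the windows by level without using the values compared, the mean of the 4 ExE libraries at embryonic day 7.5 (E7.5) was used, which came from single embryos and covered 279313 of the windows. The difference was largest in the middle of this range. Windows at 0 to 10% at E7.5 (9483) differed by 0.21 points. Windows at 40 to 50% (36603) had 36% and 35.9% in B6/CAST and 54.1% and 50.7% in CAST/B6, a difference of 16.5 points, and those at 50 to 60% differed by 16.0. Above that it fell to 13.6 at 60 to 70%, 8.56 at 70 to 80% and 4.36 at 80 to 90%. The classes from 40% to 70% carried 17.7%, 30.7% and 30.9% of the summed difference. That order belongs to levels of ExE: with levels from the 6 E6.5 epiblast libraries the difference was 7.62 points at 40 to 50%, 13.97 at 60 to 70% and 12.5 at 80 to 90%.

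Length and level were related, so each was read within classes of the other. Among windows at 40 to 50% at E7.5, the difference rose from 8.06 points at 2 to 4 kb through 11.4, 15.4, 17.7 and 19.4 to 19.6 at 14 kb or more, so length still ordered windows of the same later level. Among windows at 80 to 90% it stayed between 4.28 and 4.63 points from 1 kb to 14 kb. The classes of length and level together accounted for 21.3% of the variance of the difference over windows. After their means were taken out, its SD was 10.3 points, against the 9.57 points that replicates gave.

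**Figure D2:**
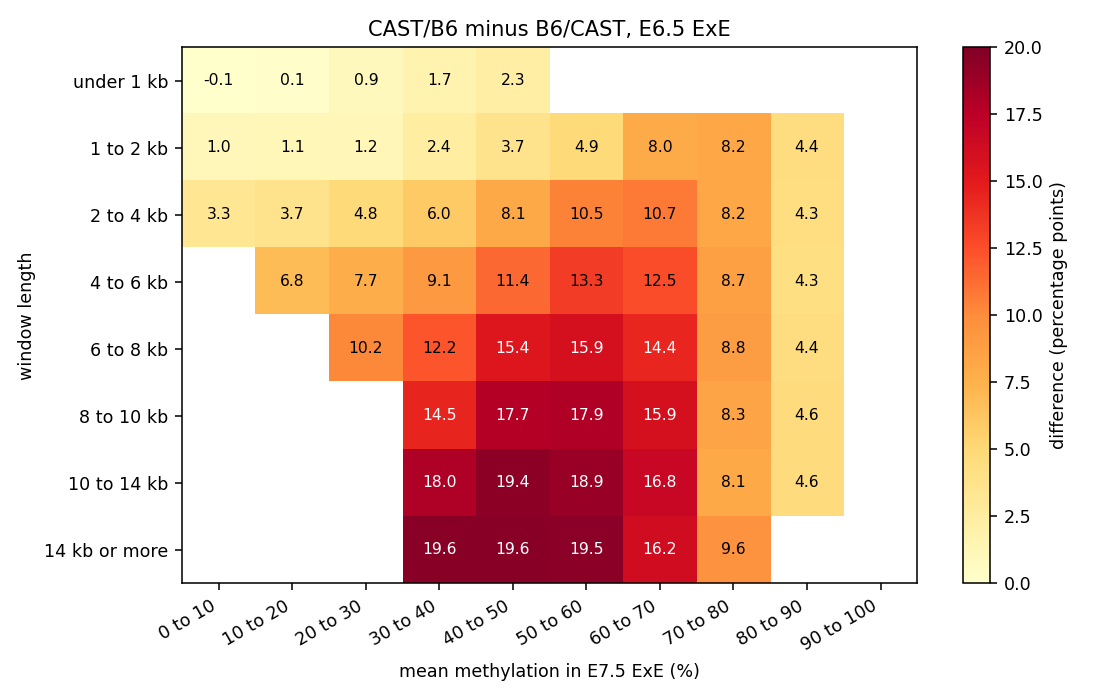
Mean difference (CAST/B6 minus B6/CAST, percentage points) at E6.5 in cells of window length and E7.5 ExE methylation level. Values at 40 to 60% grow towards long windows, to 19.6 points at 40 to 50% and 14 kb or more, while the cells at 80 to 90% hold values near 4.4 points.

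The windows that differed most were those in which epiblast is more methylated than ExE at E7.5. In the 1046 windows where epiblast was higher by 40 points or more, methylation was 30.2% and 29.9% in B6/CAST and 51.6% and 47.8% in CAST/B6 at E6.5, a difference of 19.7 points. The difference was 19.3 points where epiblast was higher by 30 to 40, 17.1 at 20 to 30, 11.8 at 10 to 20 and 5.52 at 0 to 10. Where ExE was the more methylated tissue it was 1.68 points at 0 to 10. At 10 to 20 it was 0.15 points, where the crosses overlapped, with 0.742 points without B6/CAST replicate 1 and -0.433 without replicate 2. The 487 windows where ExE was higher by over 20 points had 40.5% and 38.5% in B6/CAST and 37.5% and 37.7% in CAST/B6, a difference of -1.91 points, with both CAST/B6 libraries below in 24.8% of windows and above in 15.0%, against 3.8% and 54.3% of all windows. That value was -0.884 points without B6/CAST replicate 1 and -2.94 without replicate 2. Within windows of 2 to 4 kb the difference rose from 5.58 points where epiblast was higher by 0 to 10 to 13.5 where it was higher by 30 to 40, and the crosses overlapped where ExE was higher by over 10.

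The tissue label was read against start windows, the windows that hold the annotated 5′ start of a gene, of marker genes. On average, the epiblast genes Pou5f1, Tdgf1, Otx2, Fgf5 and Nanog were more methylated in the ExE than in the epiblast libraries at E6.5. Pou5f1, the pluripotency factor, had 39.1% against 3.81%, and Tdgf1, a Nodal co-receptor, 44.4% against 10.9%. Single libraries of the tissues stood apart for Pou5f1 and Tdgf1 and overlapped for Otx2, Fgf5 and Nanog. Over all 27 epiblast gene start windows the order was the other way, 31.0% in ExE and 33.9% in epiblast, so the check rests on the named genes. Dnmt3b (6.53% against 6.74%) and Utf1 (38.3% against 39.1%) were close in both tissues. Of the trophoblast genes, Plet1, a surface protein of trophoblast progenitors, had 30.6% in ExE and 73.1% in epiblast, and Elf5, a trophoblast transcription factor, 74.7% and 83.8%. Single libraries of the tissues overlapped for Elf5 and not for Plet1. Eomes and Tfap2c were near 0 in both tissues.

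Between the crosses these marker windows did not move together. Pou5f1 had 29.0% and 33.8% in B6/CAST and 77.8% and 15.9% in CAST/B6, so that the CAST/B6 pools lay on either side of B6/CAST. Tdgf1 had 56.4% and 54.6% against 21.4% and 45%, nearer the epiblast level in both CAST/B6 pools. Fgf5, a growth factor of the epiblast, had 7% and 0% against 9.09% and 13.9%, farther from the epiblast level of 0.924% in both. Over 27 epiblast genes with a start window, both CAST/B6 libraries were above in 5 (18.5%, against 37.6% of all start windows) and below in 8 (29.6%, against 9.37%). Their mean level was 30.2% and 29.1% in B6/CAST and 35.9% and 28.6% in CAST/B6, so that the crosses overlapped, and the mean difference of 2.55 points was -1.11 without CAST/B6 replicate 1. The part that epiblast tissue in the pools might have in the difference was not tested.

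CpG-dense gene starts differed little, and longer windows with a start did. The 7902 windows shorter than 2 kb that hold a start of a protein-coding transcript had 7.48% and 7.26% in B6/CAST and 8.66% and 7.80% in CAST/B6, a difference of 0.863 points (0.435 without CAST/B6 replicate 1). Longer windows with a start (17460) differed by 10.4 points, gene bodies without a start (127959) by 10.2 and windows outside protein-coding genes (128826) by 14.8. At 14 kb or more, the 3 kinds differed by 18.6, 18.6 and 19.2 points, so that there the place relative to genes made little difference. Downstream of the nearest start, the difference was 1.78 points in the first 1 kb, 8.03 at 2 to 5 kb and 12.1 at 50 to 100 kb. Upstream it was 3.62 points in the first 1 kb, 9.96 at 2 to 5 kb and 13.9 at 50 to 100 kb. Beyond 100 kb on either side it was 16.5, and those 82877 most distant windows held 40.2% of the summed difference. Both CAST/B6 libraries exceeded both B6/CAST libraries in the mean of each of the 19 autosomes, with differences from 10.6 points on chromosome 11 to 13.3 on chromosome 3.

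**Figure D3:**
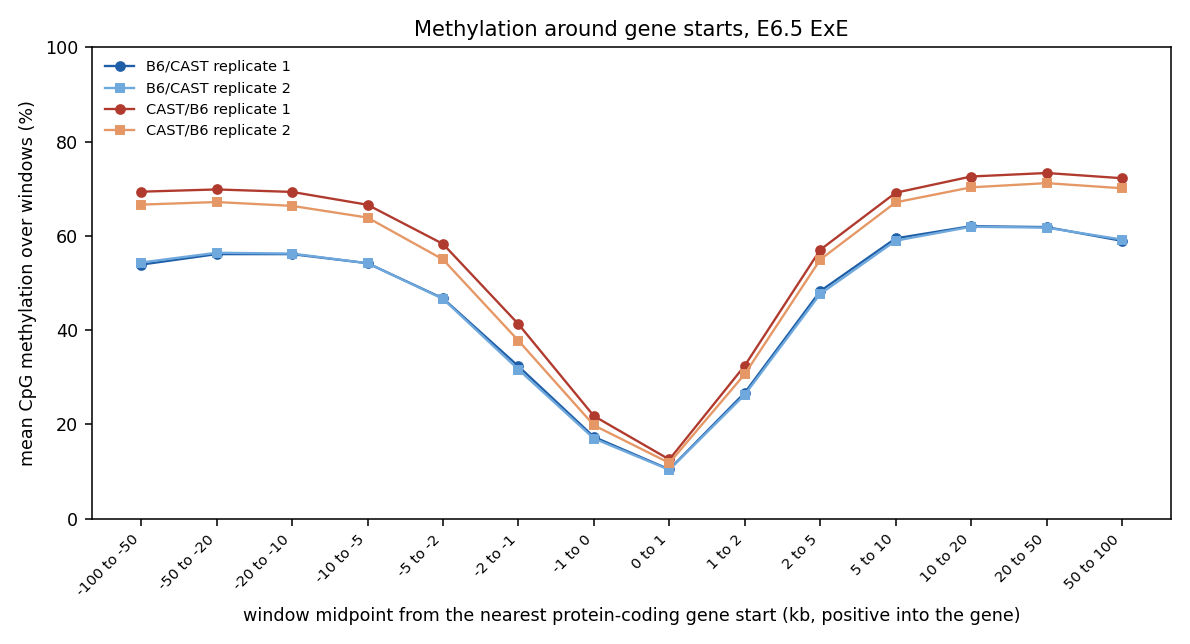
Mean methylation (percent) of the 4 E6.5 ExE libraries by distance of the window midpoint from the nearest start of a protein-coding gene. The libraries come together in the first 1 kb downstream (10.3% to 12.5%) and stand apart by 12.1 points at 50 to 100 kb downstream and 13.9 points at 50 to 100 kb upstream.

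Averaged over the windows of a gene body, about as many genes were called as not, and missing the threshold does not show that the crosses were alike. Of 8750 protein-coding genes with at least 5 windows, limma with Benjamini-Hochberg adjustment called 4362 more methylated in CAST/B6 (49.9% of genes) and 5 less methylated (0.0571%). The mean difference was 8.40 points and the median 7.24, and the crosses did not overlap in 7042 genes that were higher and 75 that were lower in CAST/B6. All genes were measured in the same 4 libraries, so that the count does not add replicates. With each library's mean over all windows subtracted, which moves the whole distribution, 407 genes were called above and 2639 below the average change of the windows. Gene bodies differed less than all windows, by 8.40 against 12.1 points on average, and their mean was -3.67 points after this step. Without B6/CAST replicate 1 the count fell to 2267 genes and without replicate 2 to 2387.

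The share of genes called rose with window length. Of 136 genes whose windows averaged 14 kb or more, 132 were called higher (97.1%), and of 26 genes with windows under 1 kb on average none was. The share was 34.8% at 2 to 4 kb, 49.9% at 4 to 6 kb and 65.3% at 8 to 10 kb. By level at E7.5 it peaked at 66.5% for genes at 50 to 60% and was 11.8% at 80 to 90%. When each library's mean over windows of the same length and level was subtracted before averaging, limma called 0 of 8679 genes, with 1172 at an unadjusted p under 0.05, 0 with trend and robust and 0 with the replicate block. That count was 276 without CAST/B6 replicate 1 and 521 without CAST/B6 replicate 2.

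Among the genes more methylated in CAST/B6, 9 of the 10 with the largest difference are described. Hapln1, a link protein of cartilage matrix (chr13:89539796-89611652), had 31.3% and 29.1% in B6/CAST and 66.8% and 54.9% in CAST/B6, a difference of 30.7 points (SE 3.86, limma Benjamini-Hochberg adjusted p = 0.0021). Glra3 and Glrb, both subunits of the inhibitory glycine receptor, went from 28.0% and 27.5% to 61.5% and 54.6%, and from 41.9% and 35.3% to 73.5% and 58.5%. Both CAST/B6 pools lay above both B6/CAST pools in each of these genes, by more than the distance within a cross. Cps1, the first enzyme of the urea cycle, had 31.7% and 35.2% against 66.97% and 57.2%. The tighter genes were C8a, a component of serum complement, at 52.8% and 53.6% against 81.9% and 79.6% (27.6 points), and Txlnb, a taxilin, at 48.3% and 49.6% against 77.5% and 75.7% (27.6 points). Adad1, a gene of male germ cells, Sptlc3, a subunit of serine palmitoyltransferase, and Abca6, an ABC transporter, differed by 27.1, 27.0 and 26.9 points.

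Their windows averaged from 6551 to 18339 bp. Windows of the same length and level differed by 12.9 points for C8a, 13.6 for Txlnb and 14.3 for Abca6 and by 17.2 to 19.5 for the other 6, so the named genes exceeded their classes. They had been chosen as the largest of 8750, and the excess is given as a description. Their limma adjusted p ranged from 0.0021 to 0.0042 with Benjamini-Hochberg adjustment.

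The 5 genes less methylated in CAST/B6 had CpG-dense windows, with means from 1614 to 2302 bp. Jak3, a kinase of cytokine receptors (chr8:71676296-71690575), had 43.5% and 32.8% in B6/CAST and 24.1% and 28.7% in CAST/B6, a difference of -11.8 points (SE 3.74, limma Benjamini-Hochberg adjusted p = 0.036). R3hdm4, an R3H domain protein, had 42.4% and 42.5% against 35.5% and 35.6%, with the pools of each cross close together (-6.88 points, adjusted p = 0.034 by limma and Benjamini-Hochberg). Rps6ka4, a kinase that phosphorylates histones after stress signals, had 52.4% and 47.7% against 40.4% and 44.1%. Garem2, an adaptor of receptor tyrosine kinases, differed by -7.68 points, and Cdr2l, a relative of a cerebellar autoantigen, by -7.40. Windows like theirs in length and level differed by 2.21 to 6.26 points in the other direction. These calls were less stable than the higher ones: all 5 were lost without B6/CAST replicate 1 and 4 without replicate 2.

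**Figure D4:**
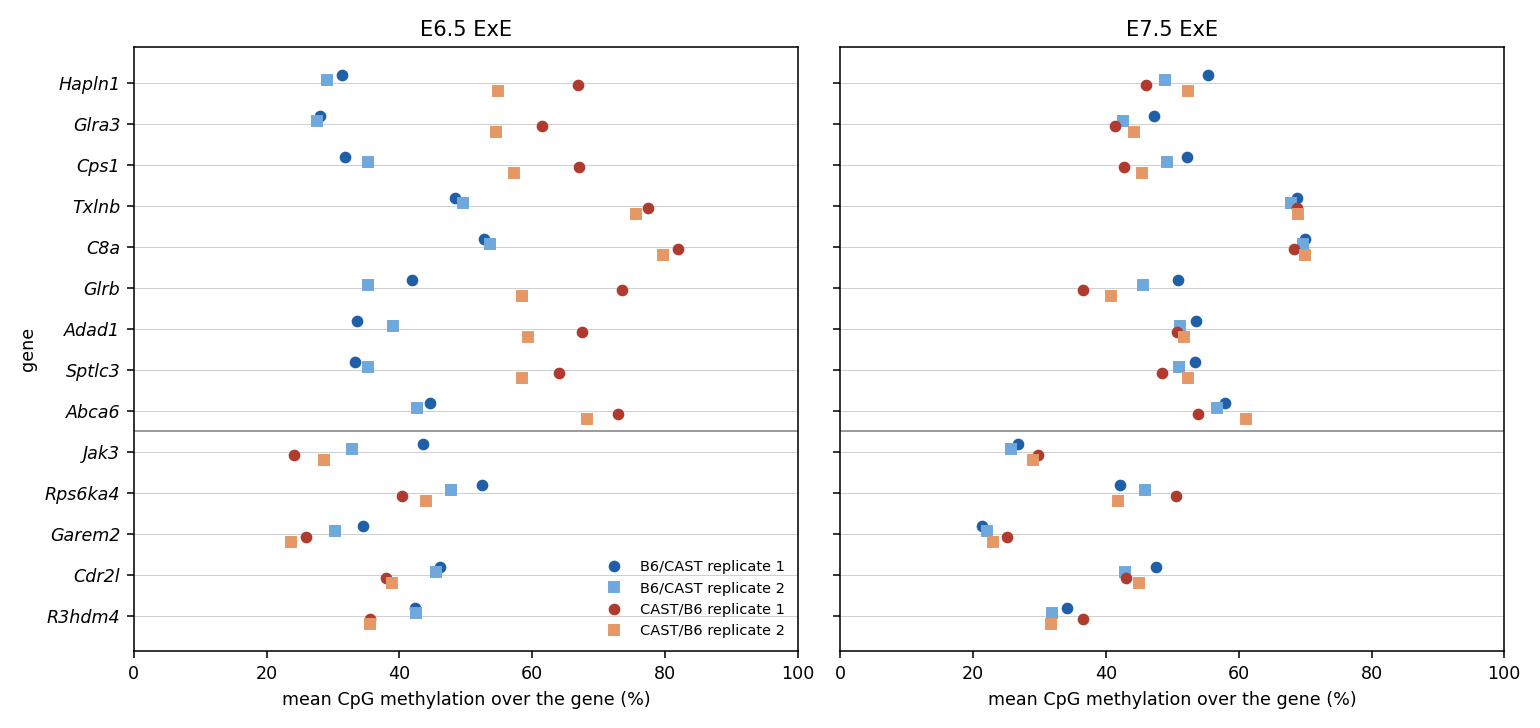
Gene body methylation (percent) of 14 named genes in each ExE library, at E6.5 (left) and E7.5 (right). At E6.5 the CAST/B6 points of Hapln1 (66.8% and 54.9%) lie above the B6/CAST points (31.3% and 29.1%), those of Jak3 lie below, and at E7.5 the crosses lie closer, with Glrb apart by -9.59 points.

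Lists of genes were compared at their start windows, and their differences followed CpG density in part. Over the 15482 start windows of protein-coding genes with a value in all 4 libraries, both CAST/B6 libraries were above in 37.6% and below in 9.37%, with a mean difference of 7.83 points and a median of 5.25. No start window passed the limma test with Benjamini-Hochberg adjustment in any list. Olfactory receptor genes, expressed in the nose from CpG-poor clusters, had 36.7% and 36.6% in B6/CAST and 58.1% and 53.3% in CAST/B6 over 803 windows, with both CAST/B6 libraries above in 71.4%. Vomeronasal receptor genes were alike (233 windows, 18.8 points, 67.8% above).

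The placental prolactin, Psg and cathepsin clusters, whose products are hormones and proteases of later trophoblast, stood at the same level. Their 45 start windows had 40.2% and 37.9% against 59.7% and 56.7%, a difference of 19.2 points, and both CAST/B6 libraries were above in 32 (71.1%, against 37.6% of all start windows) and below in 0 (against 9.37%). Prl3d1, placental lactogen of trophoblast giant cells, had 20% and 25.3% against 60.0% and 55.0%, and Psg26, a pregnancy-specific glycoprotein, 47.2% and 39.7% against 75% and 71.2%. Both were picked after their values were seen. The median window of these clusters was 16048 bp, close to that of the olfactory (15827 bp) and vomeronasal (16275 bp) genes.

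Germline genes that are silenced by promoter methylation in somatic cells differed in spite of shorter windows, with a median of 2932.5 bp. Their 40 start windows had 38.1% and 37.8% in B6/CAST and 52.6% and 50.9% in CAST/B6, a difference of 13.8 points, with both CAST/B6 libraries above in 52.5% and below in 0, against 37.6% and 9.37% of all start windows. Of 24 germline genes with enough gene body windows, 19 were called higher by limma with Benjamini-Hochberg adjustment (79.2%, against 49.9% of all genes). Chosen after their values were seen, Tex101, a surface protein of germ cells, had 47.7% and 37.1% against 86.4% and 85.1%, and Sycp2, a protein of the synaptonemal complex, had 18.3% and 21.0% against 44.1% and 58.3%. Genes fixed by name were less clear: Dazl, an RNA-binding protein, had 32.7% and 53.5% against 72.0% and 47.2%, and Ddx4, a germ cell helicase, 25.7% and 22.4% against 52.2% and 23.9%. In both the pools overlapped at the start window, while the gene body of Ddx4 was called higher, by 17.3 points (limma Benjamini-Hochberg adjusted p = 0.0052).

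Promoters of developmental regulators did not share the shift. The 31 Hox start windows, over genes that pattern the body axis, had 14.4% and 13.9% against 15.7% and 14.3%, a difference of 0.83 points (0.107 without CAST/B6 replicate 1 and 1.54 without replicate 2). In 10 Hox gene bodies levels were 21.5% and 19.8% against 15.9% and 20.5%, with 0 called (against 49.9% of all genes). The crosses overlapped there, and the mean difference of -2.50 points was -0.18 without CAST/B6 replicate 1. In 77 start windows of other developmental transcription factors the difference was 0.94 points (1.87 without CAST/B6 replicate 1 and 0.00145 without replicate 2), with both CAST/B6 libraries above in 15.6% and below in 20.8% (37.6% and 9.37% over all start windows). Trophoblast factors (32 windows) differed by 1.68 points (2.78 without CAST/B6 replicate 1 and 0.579 without replicate 2), with 9.38% above and 25.0% below, against the same 37.6% and 9.37%. Their lowest and highest members, chosen for their values, were Bmp4, a growth factor made by the ExE, at 16.2% and 18.2% against 0% and 11.1%, and Gcm1, a transcription factor of the placental labyrinth, at 32.1% and 52.4% against 67.6% and 58.3%. In gene bodies, 9 of 42 developmental factors and 4 of 26 trophoblast factors were called higher by limma with Benjamini-Hochberg adjustment. The median window was 909 bp for the developmental factors and 3412.5 bp for all genes.

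The remaining lists lay below the 7.83 points of all start windows. Housekeeping genes differed by 5.07 points over 24 windows and Zfp zinc finger genes by 7.17 over 285. Clustered protocadherins, cell surface proteins of neurons, differed by 7.44 over 47 windows. Without CAST/B6 replicate 1 the protocadherins lay above all start windows, at 7.41 against 6.50 points. The machinery of DNA methylation differed by 2.83 points over 22 windows, with 9.09% above and 22.7% below (37.6% and 9.37% over all start windows), and limma with Benjamini-Hochberg adjustment called 5 of 20 gene bodies higher (25%, against 49.9% of all genes). Among its members the start window of Dnmt1, the maintenance methyltransferase, had 63.2% and 68.6% against 64.9% and 79.8%, and that of Dnmt3a, a de novo enzyme, 24.6% and 29.0% against 31.3% and 11.1%. Both overlapped between crosses. The gene body of Dnmt1 was called higher, by 7.61 points (limma Benjamini-Hochberg adjusted p = 0.025), a call lost without either B6/CAST replicate (adjusted p = 0.12 and 0.19 by limma).

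**Figure D5:**
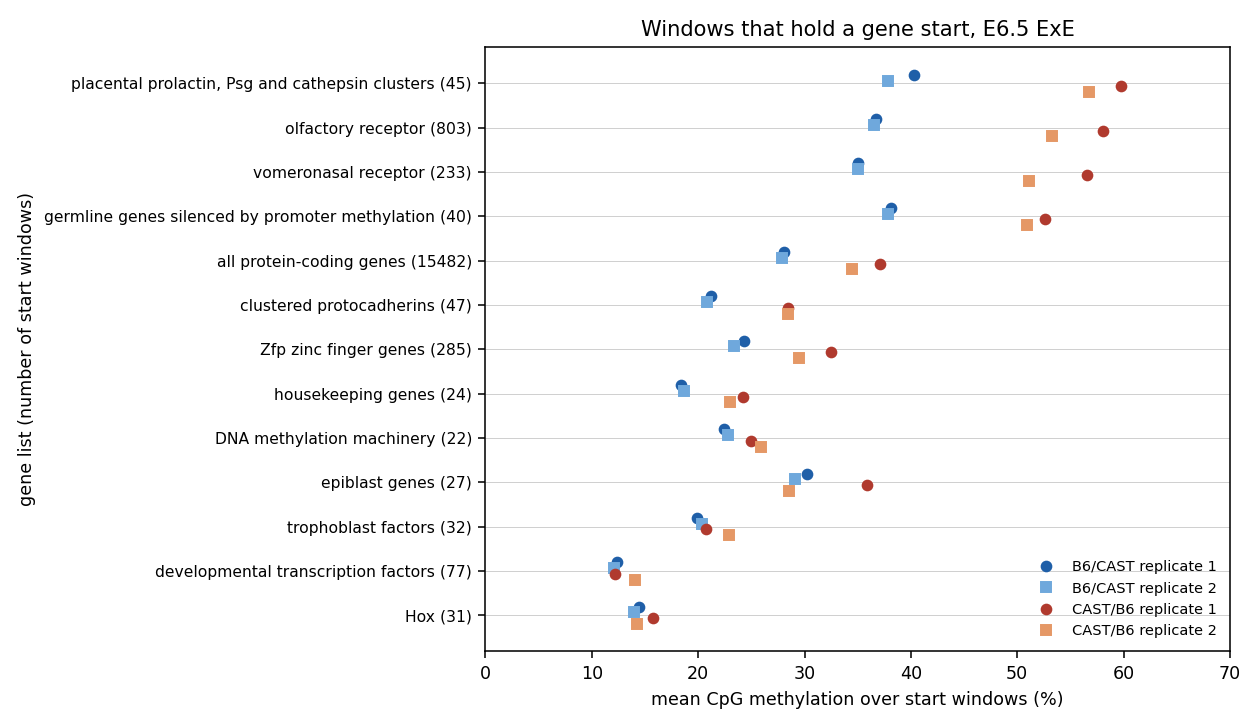
Mean methylation (percent) over the start windows of each gene list, 1 point per E6.5 ExE library, with the number of windows in brackets. The crosses stand apart by 19.2 points in the placental clusters and 13.8 in the germline genes, and their points lie side by side in the Hox (0.83 points) and developmental factor lists (0.94 points).

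At imprinted loci the 2 parental copies differ, so that reciprocal crosses there exchange the strain of the methylated copy. Windows were taken from peaks of H3K4me3 that the study had listed as imprinted, a list drawn from the same tissue and thus not independent. At the peaks of loci with a germline differentially methylated region, 65 windows, which take in flanking and gene body sequence and are not those regions alone, had 58.1% and 54.1% in B6/CAST and 67.6% and 55.8% in CAST/B6, a difference of 5.56 points that was -0.34 without CAST/B6 replicate 1, since the other CAST/B6 pool lay between the B6/CAST pools. Both CAST/B6 libraries were above in 19 of these windows (29.2%) and below in 6, against 54.3% above and 3.8% below of all windows. Peaks that the study listed as noncanonical, imprinted without germline DNA methylation, were counted with the former where the list gave such a region. The 46 windows at the other 16 noncanonical peaks, on whichever parental copy, differed by 8.04 points (5.22 without CAST/B6 replicate 1 and 10.9 without replicate 2). Both are below the 12.1 points of all windows, and these windows were shorter, with medians of 2308 bp and 3361 bp.

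The H19 windows are given because of their values. H19 is a noncoding RNA transcribed from the maternal copy, with methylation on the paternal copy. The window over the gene (chr7:142575192-142577579, sequence above) had 28.3% and 36.4% in B6/CAST and 78.9% and 69.4% in CAST/B6, a difference of 41.8 points. The window at its start had 39.3% and 40% against 59.9% and 80.6%, and the next one 30.4% and 59.9% against 97.4% and 43.6%, where the pools overlapped. Other imprinted genes fixed by name went either way: the Peg3 start window had 51.9% and 58.6% against 73.0% and 86.6%, while the window next to it (chr7:6729171-6730166) had 74.4% and 80.9% against 0% and 71.2%. The start windows of Kcnq1ot1 and Grb10 lay above in both CAST/B6 pools, and those of Peg10, Snrpn and Mest overlapped. The start window of Plagl1 had 26.0% and 26.5% against 7.14% and 21.8%. No start window of these genes passed the limma test with Benjamini-Hochberg adjustment. Gene body calls were read for the 6 imprinted genes fixed by name that had a start window and enough gene body windows. Limma with Benjamini-Hochberg adjustment called 2 of them, both higher in CAST/B6, against 49.9% of all genes called higher. Snrpn differed by 20.1 points (limma Benjamini-Hochberg adjusted p = 0.0022). Plagl1, against the direction at its start, differed by 12.6 points (limma Benjamini-Hochberg adjusted p = 0.0073). The Snrpn window at its listed peak, chr7:60002887-60005093, had 47.7% and 42.6% against 60% and 38.5%, where the pools overlapped.

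The epiblast of the same stage differed between the crosses in the same direction. Over 250886 windows with a value in all 10 wild-type E6.5 libraries, CAST/B6 was higher by 12.1 points in ExE and by 8.73 in epiblast, and in windows of 14 kb or more by 19.02 and 14.6. The difference between the tissues, fitted as an interaction by limma with Benjamini-Hochberg adjustment, passed in 0 of 250886 windows (15804 at an unadjusted p under 0.05, 0 on the logit scale) and in 0 of 8750 genes (347 at an unadjusted p under 0.05, 0 on the logit scale). Tissues were separated from each embryo, so that the epiblast and ExE pools may share embryos.

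A day later the crosses did not differ on average. At E7.5, in single embryos and over 384275 windows of a separate table, ExE had 58.9% and 56.3% in B6/CAST and 56.1% and 59.2% in CAST/B6, a difference of 0.00176 points (two-sided exact permutation p = 1). The crosses overlapped. In the windows of 14 kb or more the values were 53.1% and 48.5% against 45.1% and 49.9%, a difference of -3.30 points that overlapped as well. Limma with Benjamini-Hochberg adjustment called 0 windows (21131 at an unadjusted p under 0.05, 8 on the logit scale, 52 with trend and robust). It called 11 of 10524 genes, 7 higher and 4 lower, and 0 with the replicate block. The mean difference over genes was 0.722 points. Without B6/CAST replicate 2 it was -0.285 and without CAST/B6 replicate 2 -0.318, so that its direction rested on single libraries. Hapln1 differed by -2.97 points there, C8a by -0.58 and R3hdm4 by 1.10. The tables were made separately, and the difference between the ages was not tested.

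Some properties of the libraries ran with the cross. Values were present in 99.9% of autosomal windows in both B6/CAST ExE libraries and in 90.5% and 96.8% in CAST/B6, and 1.55% and 1.26% against 4.11% and 3.23% of windows stood at exactly 0 or 100%. The number of calls behind each value was not given, so depth is unknown. Both B6/CAST ExE columns, and neither CAST/B6 column, carried the word reimport in their header, so that this mark and the cross cannot be told apart in the ExE. Of 3 B6/CAST epiblast libraries the 1 with the mark had 73.3%, against 63.9% and 69.8% without it. In ExE from mothers that lacked Dnmt3a and Dnmt3b in their oocytes, crossed to CAST, 2 libraries with the mark had 39.3% and 39.2% and 1 without had 37.2%. The part of coverage or of this mark in the difference was not tested.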

How the data were processed

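Percent methylation in windows of 100 CpG positions was used as deposited by the authors, for 4 E6.5 ExE libraries (B6/CAST and CAST/B6, 2 each) and, for comparison, 6 wild-type epiblast libraries of the same table and the E7.5 table. Per the submitters' processing notes, reads were trimmed with Trim Galore 0.4.4 and mapped with Bismark 0.20.0. Coordinates were GRCm38. The percent values carry no coverage, so that depth and counting error are unknown, no interval was given, and the planned coverage minimum could not be run.

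Windows and gene means (midpoint in the gene body, at least 5 windows, autosomal protein-coding genes) were fitted with limma 3.58.1 in R 4.3.3 on percent values, by cross without covariates, with Benjamini-Hochberg adjustment and a threshold of 0.05. Library means were compared by a two-sided exact permutation test. Interactions used all 10 wild-type E6.5 libraries. Levels and tissue differences used for classing came from E7.5 libraries, matched by window. Start windows hold the 5′ start of a gene. Lists comprised olfactory, vomeronasal, placental cluster, protocadherin, Zfp, Hox, developmental, trophoblast, epiblast, germline, housekeeping and methylation machinery genes. Named genes were up to 10 called genes with the largest difference in each direction whose crosses did not overlap, plus marker, germline, methyltransferase and imprinted genes fixed by name. No window qualified under the same rule. 1 of the 10 higher genes is not reported here. Members, lists and rules were chosen with earlier results of these data known. The gene values at E7.5, the gene interaction and the fit beyond length and level were added after seeing the data.

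The fits were tested on simulated data for the E6.5 comparison. Of 8750 genes, 2000 were changed by 10 points and 2000 by 20, of which 72.35% and 95.15% were recovered, with 94 false calls. With 100 changed by each size, 0 and 19 were. Over 282147 windows none of 100 was recovered at either size. Alternatives were the logit scale (offset 0.5 points), trend and robust, centring or scaling by library, the replicate block, each library left out, all 10 libraries, other weights, level sources and gene rules.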

Additional observations from a re-analysis of the deposited data

Results flagged for a closer look

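5 results moved in 1 direction between the crosses at E6.5 and in the opposite direction at E7.5, with both libraries of a cross on the same side of the other cross at each age. The difference between the ages was not tested, since the windows come from separate tables. In windows where epiblast exceeded ExE by 40 points or more at E7.5, CAST/B6 minus B6/CAST was 19.7 points at E6.5 and -5.87 at E7.5. These windows were chosen by their E7.5 values in the same libraries, so the E7.5 value is not independent of that choice.

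Gene body values turned in the same way for Cps1 (28.6 and -6.62 points) and Glrb (27.4 and -9.59). Glrb was called at E7.5 as well, at an adjusted p of 0.01 by limma with Benjamini-Hochberg adjustment, but with the replicate block 0 genes were called there. The E7.5 fit gave all named genes the same SE (2.14 points), so their p-values follow the size of the difference and not the spread of each gene. Jak3 and Garem2 turned the other way, from -11.8 to 3.23 points and from -7.68 to 2.38. Neither passed at E7.5.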

How the results depend on the processing

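Other settings moved sizes more than directions. The mean difference of 12.1 points was 14.7 weighted by window length and 15.4 between library medians. With levels taken from the compared ExE libraries it was -0.212 points at 0 to 10% and 5.78 at 80 to 90%, and with levels from E6.5 epiblast -0.135 at 0 to 10%, 7.62 at 40 to 50% and 12.5 at 80 to 90%. Window calls rose from 0 to 3905 when all 10 wild-type libraries entered the fit, and at E7.5 from 0 to 8 on the logit scale, 52 with trend and robust and 4 with library means subtracted. The cause was not tested.

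Leaving out 1 library at a time gave mean differences from 10.9 to 13.3 points at E6.5 and from -1.55 to 1.56 at E7.5, 0.0223 to 0.407 under 1 kb, 9.51 to 11.8 at 4 to 6 kb and 17.4 to 20.7 at 14 kb or more. By level it gave 0.0398 to 0.385 at 0 to 10%, 14.8 to 18.1 at 40 to 50%, 12.4 to 14.8 at 60 to 70% and 3.78 to 4.94 at 80 to 90%. Called genes ranged from 2267 to 5499, genes beyond length and level from 0 to 521 (276 and 521 without CAST/B6 replicates 1 and 2) and E7.5 genes from 6 (without B6/CAST replicate 1) to 82 (without CAST/B6 replicate 2). At windows where ExE exceeded epiblast by over 20 points at E7.5 it gave -2.94 to -0.884. For lists (chosen after seeing the data) it gave -1.11 to 6.21 at epiblast gene starts, -4.81 to -0.18 in Hox gene bodies, 0.107 to 1.54 at Hox starts, 0.00145 to 1.87 at developmental and 0.579 to 2.78 at trophoblast factor starts, 5.22 to 10.9 at noncanonical loci and -0.34 to 11.5 at loci with a germline methylated region. A cross left with 1 library is assumed to vary like the other.

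Same-numbered libraries of the crosses share only a number: their deviations correlated at -0.0543 over genes at E6.5 and at -0.106 at E7.5. With the replicate block, 0 windows and 4312 genes were called at E6.5, and 0 genes at E7.5, also with the numbers crossed (chosen after seeing the data). All 9 named higher genes kept their call in every setting run on single genes except the fit beyond length and level. There no named gene, higher or lower, kept its call (limma Benjamini-Hochberg adjusted p from 0.31 to 0.42). Of the 5 lower, 4 lost it with all 10 libraries and 3 with windows that overlap the gene.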
